A study of Mus musculus with 12 samples.

Results

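To examine residual vascular cells in cultures of floated white adipocytes, 10 endothelial marker genes were followed over the treatments: Pecam1, Cdh5, Eng, Kdr, Flt1, Tek, Tie1, Emcn, Esam and Vwf. The members were the rows of the gene count table that carry these symbols, and all 10 were found among its 20295 genes. All 10 also passed the filter on low counts, which left 13543 genes for testing. The cultures were epididymal white adipocytes (eWAs) from lean male C57/BL6J mice, freed from the fat pad with collagenase, floated, embedded in a hydrogel at 50000 cells per well and kept for 2 days. Every group carried the same genotype and went through the same culture. The vehicle group received DMSO, the ISO group received isoproterenol, a β-adrenergic receptor agonist, for 3 hours, the Lip group received lipase inhibitors, and the Lip+ISO group received lipase inhibitors and then ISO for 3 hours, with 3 libraries in each of the 4 groups. The age of the mice is not given in the sources used here.

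Floating takes advantage of the buoyancy of lipid-laden adipocytes, while the stromal and vascular cells of the fat pad sink, so a floated preparation is enriched for adipocytes but not pure. White fat is densely vascularised, and each adipocyte lies against capillaries that deliver lipid and carry away fatty acids. Endothelial cells line these vessels. They hold to each other through junction molecules, survive on VEGF and angiopoietin signals read by receptor tyrosine kinases, and store von Willebrand factor for haemostasis. None of the 10 genes is an adipocyte marker. In these bulk libraries fewer cells of a type and less RNA per cell cannot be told apart.

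The libraries held between 22632220 and 43707557 counts and detected between 15141 and 17079 genes, and ISO replicate 2 was the deepest. All values in single libraries are counts per 1000000 (CPM), scaled by the trimmed mean of M-values (TMM), and the limit that a count of 0 allows (3 counts) lay between 0.0686 and 0.133 CPM, counting error only. The summed level of 10 adipocyte genes, led by Fabp4 and including Adipoq and Plin1, lay between 24100 and 38413 CPM, so every library matched its adipocyte label. Lip replicate 3 stood apart from the other 11 libraries in its epithelial genes (Epcam, Cdh1, Lcn5 and Adam7), which summed to 24.7 CPM there against at most 2.29 CPM elsewhere. In that library the 8 genes of the mesothelial list summed to 97.8 CPM, the highest value of all 12 libraries. The keratin genes of that list, Krt8 and Krt19, stood at 13.1 ± 20.1 and 9.38 ± 13.4 CPM in Lip (SD, n = 3), each SD above its mean. No other gene of the list had a higher mean in Lip than in vehicle, so the sum was not read as a mesothelial signal.

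The endothelial signal was small but well above the detection limit. The 10 members together summed to 204 ± 66.4 CPM (SD, n = 3) in vehicle, 398 ± 120.1 CPM in ISO, 160 ± 89.5 CPM in Lip and 229 ± 106 CPM in Lip+ISO cultures. The lowest sum was 87.8 CPM in Lip replicate 1 and the highest 519 CPM in ISO replicate 2. The lowest single count was 12, for Vwf in Lip replicate 1, which lies above the limit of 3 counts. Of 24 further genes of endothelial identity, among them Erg, Sox17, Cldn5 and Robo4, all 24 passed the filter on low counts, and their sum lay between 125 and 691 CPM. Of the red blood cell genes, Alas2 averaged 0.341 CPM and Slc4a1 0.0628 CPM. The globin genes Hba-a1, Hba-a2 and Hbb-b1 were listed at 0 in all 12 libraries, and as they have near-identical copies and the handling of reads that map to several places is not given in the sources used here, those zeros were not read as absence. The lymphatic endothelial marker Lyve1 averaged 0.238 CPM with 1 library at 0.

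Compared per length, as CPM per kb of counted transcript, the members spanned a wide range of levels. Eng, a coreceptor for TGF-β family ligands, stood first with a mean level of 19.6 ± 9.03 CPM per kb (SD, 12 libraries) and exceeded the next gene in 12 of 12 libraries. Pecam1 at 13.98, Cdh5 at 13.4 and Esam at 12.2 CPM per kb followed. Pecam1 and Cdh5 could not be ordered, as Pecam1 exceeded Cdh5 in only 7 of 12 libraries. Cdh5 in turn exceeded Esam in 7 of 12 libraries, whereas Esam lay above Tie1 in all 12. Tie1 at 5.36 and Emcn at 5.18 CPM per kb were close, with Tie1 the higher in 9 of 12 libraries, and Kdr came next at 3.11 CPM per kb. Flt1 at 1.10 and Tek at 1.04 CPM per kb did not separate either, with Flt1 the higher in 7 of 12 libraries. Vwf was last at 0.275 CPM per kb, below Tek in all 12 libraries. The highest level was 71.3 times the lowest. Per kb of the whole transcribed span the first place passed to Esam, at 2.20 CPM per kb against 1.83 for Eng, and the highest level was 121 times the lowest, that of Vwf. Reads at Eng are uncertain, because Fpgs overlaps it on the opposite strand and whether the counting used strand is not given in the sources used here.

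**Figure D1:**
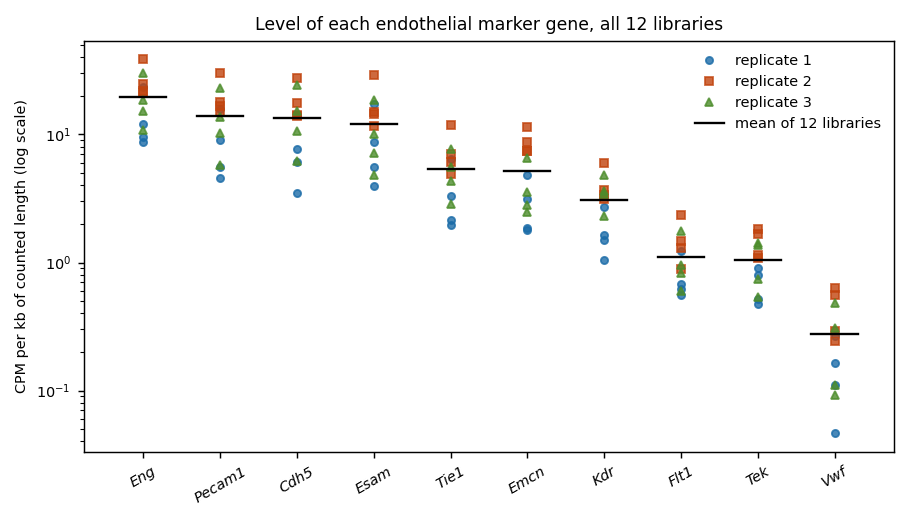
Level of each member in CPM per kb of counted length (log axis) in all 12 libraries, with the replicate number as symbol and the mean as a line. Eng at 19.6 CPM per kb and Vwf at 0.275 CPM per kb mark the ends, and the squares of replicate 2 lie towards the top of most columns.

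The junction and surface molecules came first among the roles. Pecam1 (NM_008816, mm9 chr11:106515532-106576595, minus strand) encodes the adhesion molecule CD31, which endothelial cells share with platelets and some leukocytes. It was measured at 29.9, 55.3 and 33.8 CPM in vehicle replicates 1 to 3, at 52.1, 101 and 75.7 CPM with ISO, at 15.2, 49.2 and 18.9 CPM with Lip, and at 18.6, 59.3 and 45.5 CPM with Lip+ISO. In each group replicate 2 was the highest and replicate 1 the lowest library, and vehicle and ISO overlapped, because vehicle replicate 2 lay above ISO replicate 1. Cdh5 (NM_009868, mm9 chr8:106625525-106668402, plus strand) encodes VE-cadherin, the cadherin of endothelial adherens junctions. Its level was 30.8, 57.0 and 42.6 CPM in vehicle, 56.3, 111 and 96.8 CPM in ISO, 13.8, 55.2 and 24.9 CPM in Lip, and 24.3, 69.8 and 60.5 CPM in Lip+ISO libraries. Here too vehicle replicate 2 lay just above ISO replicate 1. Esam (NM_027102, mm9 chr9:37335674-37345904, plus strand), a tight junction adhesion molecule, separated vehicle from ISO fully. It stood at 16.3, 26.6 and 13.2 CPM in vehicle, 31.9, 54.2 and 34.3 CPM in ISO, 7.32, 21.4 and 8.94 CPM in Lip, and 10.3, 27.6 and 18.6 CPM in Lip+ISO libraries. Emcn (NM_001163522, mm9 chr3:137004042-137094033, plus strand), the sialomucin endomucin, ranged from 2.61 CPM in Lip replicate 1 to 16.6 CPM in ISO replicate 2 and had the largest share of its variance between replicate numbers of all 10 members, 69.1%.

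The receptors showed largely the same order of libraries. Eng (NM_001146348, mm9 chr2:32502115-32538189, plus strand) was counted at 40.3, 71.1 and 51.8 CPM in vehicle, 79.6, 130.03 and 101 CPM in ISO, 29.2, 73.9 and 36.5 CPM in Lip, and 32.3, 84.0 and 62.6 CPM in Lip+ISO libraries. All 3 ISO values exceeded all 3 vehicle values. Kdr (NM_010612, mm9 chr5:76329299-76374453, minus strand), the main signalling receptor for VEGF, gave 8.91, 18.3 and 12.6 CPM in vehicle, 14.7, 32.5 and 26.4 CPM in ISO, 5.70, 17.2 and 18.6 CPM in Lip, and 8.17, 20.1 and 19.9 CPM in Lip+ISO. Lip replicate 3, the library with the epithelial signal, broke the pattern. Kdr in Lip was the only one of 40 sets of a member and a group in which replicate 2 was not the highest. Kdr made up 14.1% of the summed member CPM in Lip replicate 3 against 5.25% to 7.96% in the other libraries. Flt1 (NM_010228, mm9 chr5:148373772-148537564, minus strand), a VEGF receptor that also works as a decoy, stood at 3.92, 8.14 and 3.76 CPM in vehicle, 7.66, 14.8 and 11.0 CPM in ISO, 3.50, 5.60 and 5.20 CPM in Lip, and 4.29, 9.27 and 5.997 CPM in Lip+ISO. Vehicle replicate 2 overlapped ISO replicate 1. Tek (NM_013690, mm9 chr4:94405980-94541667, plus strand), the angiopoietin receptor, was one of 2 members, with Vwf, whose Lip+ISO level came near its ISO level. It gave 2.21, 5.12 and 3.48 CPM in vehicle, 4.27, 8.64 and 6.49 CPM in ISO, 2.44, 5.41 and 2.52 CPM in Lip, and 3.76, 7.78 and 6.67 CPM in Lip+ISO. Tie1 (NM_011587, mm9 chr4:118143796-118162454, minus strand), the orphan partner of Tek, ranged from 12.9 to 23.5 CPM in vehicle and from 24.8 to 46.1 CPM in ISO, without overlap, and from 7.66 to 27.5 CPM over the 6 libraries with lipase inhibitors.

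Vwf (NM_011708, mm9 chr6:125502966-125636697, plus strand), the large glycoprotein that tethers platelets, departed most from the others. It was counted at 1.45, 2.56 and 0.822 CPM in vehicle, 0.969, 4.88 and 4.28 CPM in ISO, 0.412, 2.16 and 0.969 CPM in Lip, and 2.34, 5.56 and 2.74 CPM in Lip+ISO. It was the member with the lowest counts, and the only one that was lower in ISO than in vehicle in a same-numbered pair, replicate 1, where 22 counts stood against 46.

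**Figure D2:**
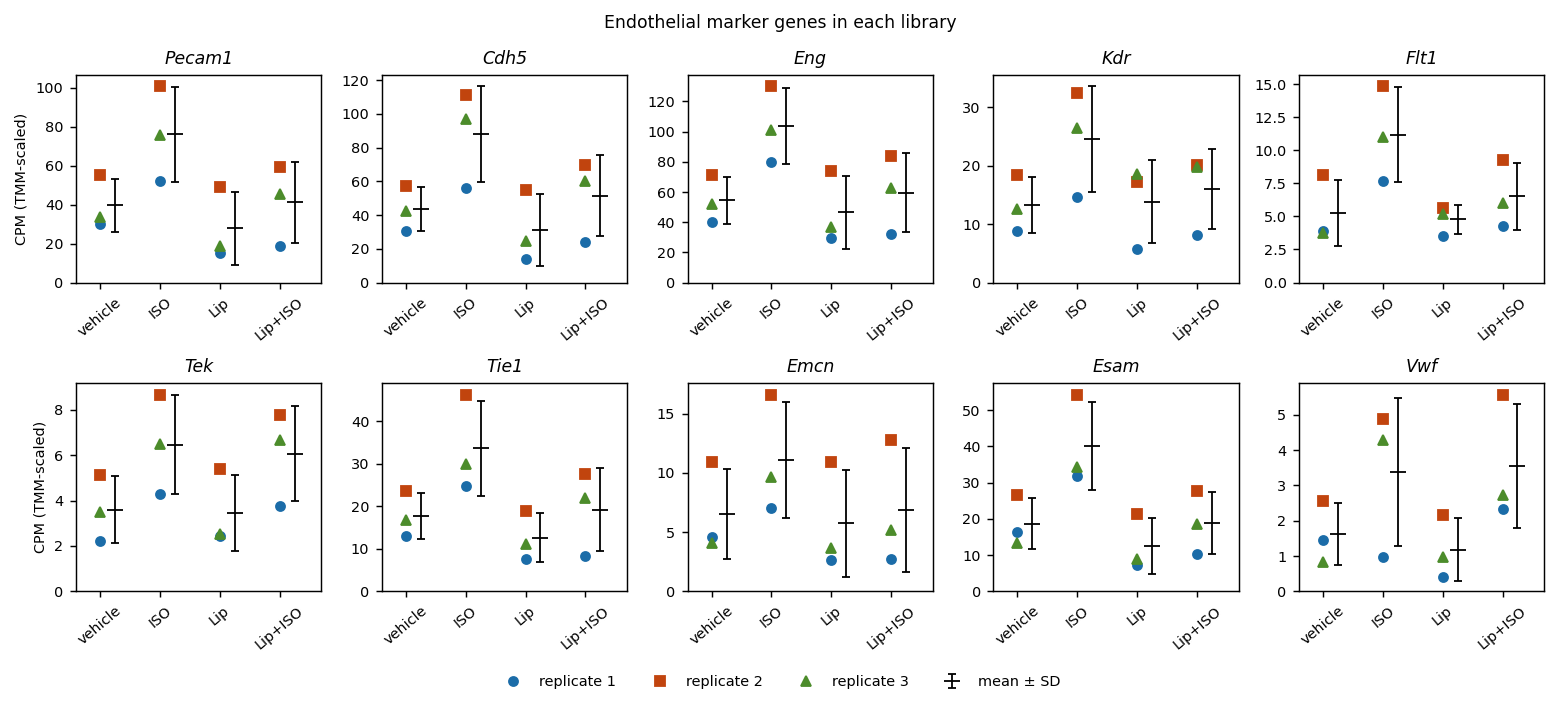
TMM-scaled CPM of each member in every library, by group, with the replicate number as symbol and the group mean ± SD (n = 3) as bars. The square of replicate 2 is the highest point in 39 of 40 sets, and ISO lies clear of vehicle for Eng, Tie1 and Esam.

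The promoters of the receptor kinases are shown because Flt1 was the one member called with ISO, Kdr is its sister VEGF receptor, and Tie1 and Tek form the other pair. The 250 bases before the annotated gene start (RefSeq, GRCm38.p6, 5′ to 3′ on the gene strand) were found for 6 of 10 members (Eng, Emcn, Tek, Tie1, Kdr and Flt1). Capitals mark 4 motifs sought on both strands. AGGAAG is a form of the ETS family motif, and so is CGGAAG. TGACGTCA is the full cAMP response element. AGATAA is a GATA family motif. The windows are chr5:147726012-147726261 (minus strand) for Flt1, chr5:75978456-75978705 (minus strand) for Kdr, chr4:118489850-118490099 (minus strand) for Tie1 and chr4:94739039-94739288 (plus strand) for Tek.
Flt1: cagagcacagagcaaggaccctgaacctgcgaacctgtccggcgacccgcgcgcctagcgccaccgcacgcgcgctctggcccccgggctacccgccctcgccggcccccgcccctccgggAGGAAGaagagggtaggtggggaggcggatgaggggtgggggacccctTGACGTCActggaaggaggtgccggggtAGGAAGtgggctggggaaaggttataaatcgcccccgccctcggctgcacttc
Kdr: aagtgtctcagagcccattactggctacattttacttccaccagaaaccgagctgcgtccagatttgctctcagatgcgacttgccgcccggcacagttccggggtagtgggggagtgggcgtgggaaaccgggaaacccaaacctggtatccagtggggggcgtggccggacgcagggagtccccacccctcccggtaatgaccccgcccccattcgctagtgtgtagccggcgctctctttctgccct
Tie1: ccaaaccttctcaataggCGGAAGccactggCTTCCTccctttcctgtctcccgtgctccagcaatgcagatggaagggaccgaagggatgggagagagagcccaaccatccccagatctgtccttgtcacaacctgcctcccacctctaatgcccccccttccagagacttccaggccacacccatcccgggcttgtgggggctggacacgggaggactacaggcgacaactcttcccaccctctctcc
Tek: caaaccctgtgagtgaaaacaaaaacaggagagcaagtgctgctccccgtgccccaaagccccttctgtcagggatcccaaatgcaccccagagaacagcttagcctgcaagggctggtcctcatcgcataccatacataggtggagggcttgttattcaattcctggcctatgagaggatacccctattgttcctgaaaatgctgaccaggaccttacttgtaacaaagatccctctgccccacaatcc
The Flt1 window held AGGAAG in 2 places and TGACGTCA in 1, the latter 81 to 74 bases before the start. Tie1 held each form of the ETS family motif in 1 place, while Eng and Emcn each held AGGAAG in 2 places. None of the 4 motifs was in the Kdr or Tek window, which says only that these letters are not there. Among all 32851 windows of the same length in the table, 29.5% held AGGAAG and 39.2% held one or both forms of the ETS family motif. The full cAMP response element was in 1.55% of windows. The GATA family motif was in 9.99%, and CGGAAG was in 13.6%. Whether any of these motifs bears on the levels measured here was not tested.

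First, the response to ISO with active lipases was examined by comparing ISO with vehicle. All 10 members had a higher mean in ISO. The fitted log2 fold changes lay between 0.78 (Emcn) and 1.11 (Esam) with a median of 0.94, a fold of 1.92, against a median of 0.00176 over all tested genes. In the edgeR quasi-likelihood fit with 1 mean per group, 1 of 10 passed at the adjusted p threshold of 0.05 as higher, against a background of 12.3% of all tested genes, and 0 of 10 as lower, against 13.9%. The 1 that passed was Flt1, which rose by 1.09 ± 0.36 on the log2 scale (SE, n = 3 per group, edgeR adjusted p = 0.0398), and it was also the 1 member past a minimum log2 fold change of 1, against 5.68% of all tested genes. DESeq2 also called 1 of 10, against 14% of the genes it tested. The unadjusted edgeR p was under 0.05 for 5 of 10 members, and for 5262 of the 13543 tested genes. The call on Flt1 was lost in 6 of 15 fits that left out libraries. In 5 of them 0 of 10 members were called, namely without vehicle replicate 1, vehicle replicate 3, ISO replicate 2, ISO replicate 3 or replicate 3 of every group. In the other, without replicate 1 of every group, Flt1 did not pass (edgeR adjusted p = 0.0631) and 2 others did, Cdh5 (edgeR adjusted p = 0.0476) and Kdr (edgeR adjusted p = 0.0107), against 8.53% of all genes tested in that fit. The count was 4 without Lip+ISO replicate 1 (13.2% of all genes tested in that fit), 3 without Lip replicate 2 (11.4%), 2 without vehicle replicate 2 (12.3%) and 2 without replicate 2 of every group (7.75%). In a fit on the vehicle and ISO libraries alone 6 of 10 passed as higher, against 14.1% of all genes tested in it.

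Most of the spread of the members within groups followed the replicate number. Same-numbered libraries of ISO and vehicle deviated together over all genes, and after the replicate number was entered as a blocking term 9 of 10 members were called higher, where the background was 18.8% of all tested genes. The median standard error of the members fell from 0.44 to 0.19 while their median log2 fold change stayed at 0.94. In this fit Eng was higher by 0.94 ± 0.14 on the log2 scale (edgeR adjusted p = 0.000343), Esam by 1.11 ± 0.18 (edgeR adjusted p = 0.000633) and Cdh5 by 1.00 ± 0.19 (edgeR adjusted p = 0.00175), whereas Vwf at 0.95 ± 0.42 did not pass (edgeR adjusted p = 0.0962). The same-numbered ratios of ISO to vehicle had medians over the members of 1.88, 1.83 and 2.26 in replicates 1 to 3. A total of 9 of 10 members were higher in 3 of 3 pairs, against 32.7% of all tested genes, and 3 of 10 (Eng, Tie1 and Esam) had groups that did not overlap, against 20.7%.

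Next, the lipase inhibitors alone were compared with vehicle. The members were called neither higher nor lower, with 0 of 10 in edgeR and in DESeq2. None had an unadjusted edgeR p under 0.05, while 582 of the 13543 tested genes did. The background was 0.0443% of tested genes called lower and 0.00738% called higher, so hardly any gene was called in this comparison. The replicate block called 0 of 10 too, where 0.155% of tested genes were lower and 0.0443% higher, but the block on these groups alone called 3 of 10 lower (Pecam1, Tie1 and Esam), against 2.09% of the genes tested in that fit. The log2 fold changes ran from -0.57 (Esam) to 0.07 (Kdr) with a median of -0.33. This value rested on single libraries, since the median was -0.98 without Lip replicate 2 and 0.020 without vehicle replicate 2, and it was -0.26 without Lip replicate 3. The members lower in 3 of 3 same-numbered pairs were Pecam1, Cdh5, Tie1, Emcn and Esam, 5 of 10 against 18.7% of all tested genes. The largest of these differences was that of Esam, -0.57 ± 0.43 (SE, edgeR adjusted p = 1.00), and with the block it was -0.66 ± 0.19 (edgeR adjusted p = 0.266), with Pecam1 at -0.64 ± 0.20 and Cdh5 at -0.62 ± 0.20 (edgeR adjusted p = 0.354 and 0.343).

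Under inhibited lipases, ISO was then compared as Lip+ISO against Lip. All 10 log2 fold changes were above 0, between 0.21 (Kdr) and 1.59 (Vwf), with a median of 0.58. The edgeR fit called 0 of 10, with a background of 11.5% of tested genes called higher and 15.8% called lower. DESeq2 called 1 against 13.6% of the genes it tested. An unadjusted edgeR p under 0.05 was found for 1 of 10 members, and for 4970 of the 13543 tested genes. Vwf had the largest difference, 1.59 ± 0.65 (edgeR adjusted p = 0.0952), and was the 1 member whose groups did not overlap, against 17.2% of all tested genes. With the replicate block 6 of 10 were called higher, against 15.5% of all tested genes, namely Pecam1, Cdh5, Tek, Tie1, Esam and Vwf, and 10 of 10 were higher in 3 of 3 pairs, against 28.6%. In that fit Vwf differed by 1.69 ± 0.42 (edgeR adjusted p = 0.00809), Tek by 0.84 ± 0.19 (edgeR adjusted p = 0.00405) and Kdr by 0.24 ± 0.17 (edgeR adjusted p = 0.299). Without Lip replicate 3, the library with the epithelial signal, 2 of 10 were called with the block, against 12.1% of all genes tested in that fit. Without Lip replicate 2 and no block 4 of 10 were called, against 9.28%.

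**Figure D3:**
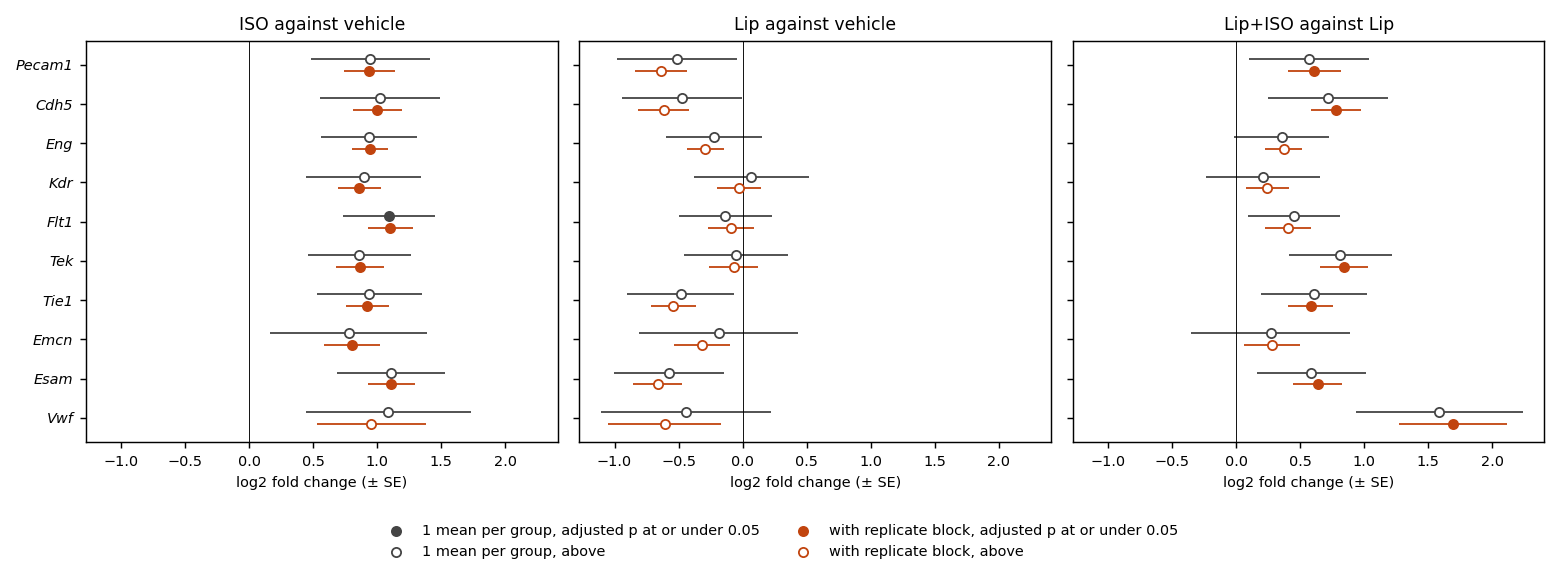
Fitted log2 fold change ± SE of each member in the 3 comparisons in which same-numbered libraries deviated together, from the edgeR fit with 1 mean per group (grey) and with the replicate block (orange), with filled points for members that passed. The estimates stay within 1 SE of each other between the fits while the bars shorten, and the filled points go from 1 to 9 for ISO against vehicle and from 0 to 6 for Lip+ISO against Lip.

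To see the effect of the inhibitors on agonist-treated cultures, Lip+ISO was set against ISO. The members had a median log2 fold change of -0.78, and the 8 members other than Tek and Vwf lay between -0.62 and -1.09. Esam was the lowest at -1.09 ± 0.42 (edgeR adjusted p = 0.136), followed by Pecam1 at -0.89 ± 0.46 (edgeR adjusted p = 0.266). Tek at -0.10 ± 0.39 and Vwf at 0.06 ± 0.62 lay near 0 (edgeR adjusted p = 0.910 and 0.969). None of the 10 passed in edgeR or DESeq2, and the edgeR background was 4.59% of tested genes called lower and 4.36% called higher. An unadjusted edgeR p under 0.05 was found for 2 of 10 members, and for 3230 of the 13543 tested genes. Esam was the 1 member whose groups did not overlap, against 13.5% of all tested genes. With the replicate block more members were called lower. Those counts are given with the dependence on the processing, because same-numbered libraries of these groups did not all deviate together.

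Whether the response to ISO differed with and without inhibitors was tested as an interaction, the log2 change from Lip to Lip+ISO minus that from vehicle to ISO. The members ran from -0.69 ± 0.63 for Kdr to 0.50 ± 0.91 for Vwf, with a median of -0.44. None of the 10 passed (edgeR adjusted p from 0.637 to 0.985), and DESeq2 also called 0. None had an unadjusted edgeR p under 0.05, while 1868 of the 13543 tested genes did. In the background 0.724% of tested genes were called lower and 0.901% higher. The comparisons share groups: ISO enters both the first comparison and Lip+ISO against ISO, so for Esam the 1.11 and the -1.09 use the same 3 ISO libraries.

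The members varied together from library to library. Replicate 2 was the highest library in 39 of 40 sets of a member and a group, and replicate 1 the lowest in 36 of 40. For 9 of 10 members replicate 2 was the highest in every group, against 6.59% of all tested genes, and for 6 of 10 replicate 1 was the lowest in every group, against 6.12%. Of the variance of log2 CPM, the replicate number took a median of 43.4% over the members and 15.7% over all tested genes, while the group took 49.4% and 52.8%. With group means removed, the correlation between 2 members over the 12 libraries had a median of 0.879 over 45 pairs and ran from 0.724 for Tie1 with Vwf to 0.992 for Pecam1 with Eng. These points share their libraries, and with the replicate means removed too the median was 0.367. Kdr and Vwf were least tied to the rest, with median correlations of 0.809 and 0.799 with the other members.

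**Figure D4:**
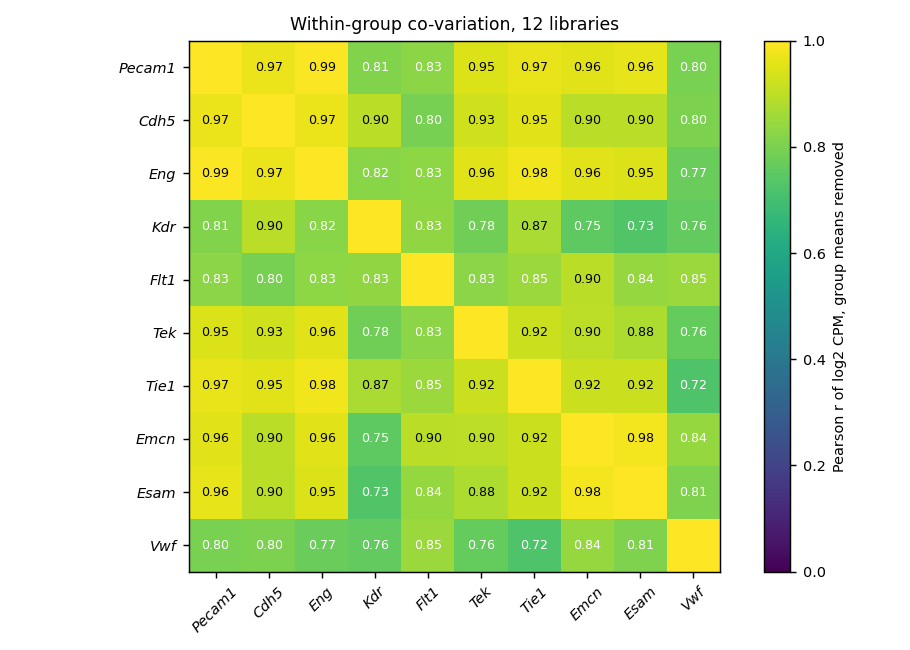
Pearson correlation of log2 CPM between each pair of members over 12 libraries after removal of the group means, with the value in each cell. Pecam1 and Eng share the highest value, 0.992, and the rows of Kdr, Flt1 and Vwf are the lowest.

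Over all 12 libraries, the genes outside the 10 whose log2 CPM followed the mean profile of the members most closely were Cd34 (r = 0.992), Atp1b2 (r = 0.992), Mmrn2 (r = 0.986), Bcl6b (r = 0.983) and Cdh13 (r = 0.981), from 11912 genes with a mean of at least 1 CPM. Cd34, a sialomucin of endothelial and progenitor cells, averaged 35.3 CPM, and Mmrn2, an extracellular glycoprotein of the endothelial surface, 10.1 CPM.

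Further endothelial genes gave the context. Of 24 genes of endothelial identity, 4 passed as higher with ISO and 0 as lower, with a median log2 fold change of 0.83. Among all tested genes 12.3% were called higher and 13.9% lower. The replicate block called 19 of 24 higher, against 18.8% of all tested genes. The same shares apply to the other counts for ISO against vehicle in this paragraph. The tight junction protein Cldn5 went furthest, from 17.8 ± 8.53 CPM in vehicle to 101 ± 27.02 CPM in ISO, a log2 fold change of 2.52 ± 0.48 (edgeR adjusted p = 0.00222). The transcription factor Fli1 (1.37 ± 0.40, edgeR adjusted p = 0.0225) and the sphingosine 1-phosphate receptor gene S1pr1 (1.32 ± 0.42, edgeR adjusted p = 0.0357) also rose. Cldn5 was the 1 gene of this list that passed in Lip+ISO against ISO (-1.79 ± 0.47, edgeR adjusted p = 0.0322) and in Lip+ISO against Lip (1.50 ± 0.48, edgeR adjusted p = 0.0348). Of 5 capillary-associated genes none passed with ISO, and 2 were higher with the block. The lipoprotein lipase anchor Gpihbp1 (-1.46 ± 0.38, edgeR adjusted p = 0.0328) and Rgcc (-1.36 ± 0.20, edgeR adjusted p = 0.00103) fell from ISO to Lip+ISO, and Car4 was higher by 0.66 ± 0.13 (edgeR adjusted p = 0.00633). The sum of these 5 genes did not follow the members from library to library. It was made up mainly of Rgcc and Car4, at means of 169 and 33.3 CPM, against 14.0 CPM for Gpihbp1, 7.53 for Plvap and 0.563 for Aplnr. With group means removed the sum correlated at -0.462 with the mean deviation of the members, and replicate 1 was its highest library in every group. That correlation therefore does not describe the lower genes of the list. Of 8 tested arterial and tip cell genes 1 rose with ISO, the ephrin gene Efnb2 (1.33 ± 0.19, edgeR adjusted p = 0.000231), and 5 of 8 were higher with the block. Of 6 tested venous, lymphatic and activation genes 1 rose, the leukocyte adhesion molecule Sele (2.02 ± 0.64, edgeR adjusted p = 0.0355), at a mean of 0.258 CPM in vehicle and 1.04 CPM in ISO, and 3 of 6 were higher with the block. Prox1, the lymphatic transcription factor, was higher in Lip+ISO than in Lip by 1.98 ± 0.47 (edgeR adjusted p = 0.00697). Its level was low, at a mean of 0.371 CPM in Lip and 1.48 CPM in Lip+ISO, with at most 44 counts in a library.

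The ligands and partners of the receptors did not share one direction. In ISO against vehicle 12.3% of all tested genes were called higher and 13.9% lower. With the replicate block these shares were 18.8% and 19.6%. Of 7 genes for ligands and coreceptors of Kdr and Flt1, 1 rose with ISO, Vegfa, from 171 ± 4.89 to 380 ± 55.7 CPM in a log2 change of 1.15 ± 0.17 (edgeR adjusted p = 0.000377). Vegfa was lower in Lip+ISO than in ISO by -0.66 ± 0.17 (edgeR adjusted p = 0.0299). Of 3 angiopoietin genes, the ligands of Tek, 0 of 3 passed with ISO in edgeR, where Angpt2 had a log2 fold change of 0.78 ± 0.40 (edgeR adjusted p = 0.165), and with the replicate block 2 of 3 passed. Of 11 tested genes for ligands, receptors and targets around Eng, 0 rose and 3 fell with ISO, the BMP target genes Smad6 (-1.09 ± 0.13, edgeR adjusted p = 7.62e-05), Id3 (-0.86 ± 0.13, edgeR adjusted p = 0.000472) and Id2 (-0.51 ± 0.17, edgeR adjusted p = 0.0441). With the replicate block 3 of the 11 were lower and 3 higher, the ligand genes Bmp6 (0.90, edgeR adjusted p = 0.00210) and Bmp4 (0.93, edgeR adjusted p = 0.0345) and the receptor gene Acvrl1 (0.56, edgeR adjusted p = 0.0125). The BMP target genes are also expressed by adipocytes, so their level is not that of endothelial cells alone. Of the 4 genes for catenins of cadherin junctions, Ctnna1 rose by 0.36 ± 0.10 (edgeR adjusted p = 0.0195) and Jup fell by 0.56 on the log2 scale (edgeR adjusted p = 0.0183), and the block called 1 higher and 2 lower.

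Markers of other cell types of the fat pad were also compared. In ISO against vehicle, with 12.3% of all tested genes called higher and 13.9% lower, 7 of 11 tested macrophage genes were called higher, 3 of 10 fibroblast genes, 3 of 12 mural cell genes and 1 of 8 mesothelial genes, each with 0 lower, and of 10 adipocyte genes 2 were called lower and 0 higher. With the replicate block, where 18.8% of all tested genes were called higher, the counts called higher were 9 of 11 macrophage, 8 of 10 fibroblast, 8 of 12 mural (with 1 lower) and 3 of 8 mesothelial genes. The macrophage sum went from 58.0 to 71.7 CPM in vehicle to 118 to 177 CPM in ISO, the fibroblast sum from 378 to 673 CPM to 739 to 977 CPM, the mural sum from 304 to 479 CPM to 381 to 553 CPM, and the mesothelial sum from 28.0 to 68.6 CPM to 71.8 to 83.4 CPM. With lipase inhibitors the macrophage sum lay between 62.6 and 67.4 CPM without ISO and between 78.1 and 132 CPM with it, and the fibroblast sum between 500 and 532 CPM and between 465 and 647 CPM. The mural sum lay between 364 and 462 CPM in Lip and lower, between 293 and 395 CPM, in Lip+ISO by its mean. The mesothelial sum lay between 14.9 and 97.8 CPM in Lip and between 45.8 and 64.7 CPM in Lip+ISO. With group means removed, the mean deviation of the members correlated over 12 libraries at 0.813 with the mural sum, 0.699 with the fibroblast sum, 0.496 with the mesothelial sum, -0.0640 with the macrophage sum and -0.374 with the adipocyte sum, and at 0.168 with the library total. Their part in the differences of the members was not tested.

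**Figure D5:**
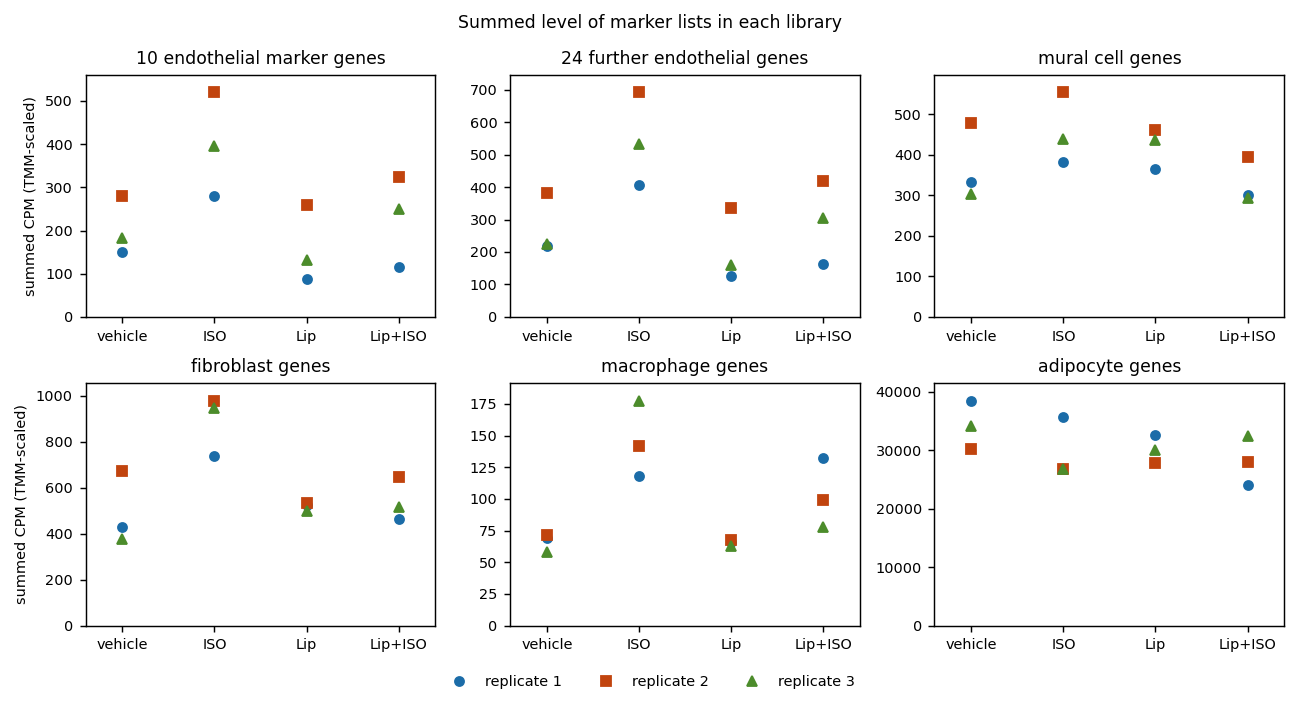
Summed CPM of 6 marker lists in each library, by group, with the replicate number as symbol. The members and the 24 further endothelial genes share their order of libraries, whereas the macrophage sum, 118 to 177 CPM in ISO against 58.0 to 71.7 CPM in vehicle, does not have replicate 2 on top in every group.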

How the data were processed

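Total RNA of 12 libraries (4 groups of 3) was sequenced with a TruSeq kit. According to the methods of the study and the processing notes, reads were mapped to mm9 with STAR (v2.4.2a), summarised with HOMER with at most 1 read per position, and counted per gene. The authors deposited raw counts for 20295 genes with transcript and counted lengths in base pairs, which are other, non-measurement columns used here only to set levels per kb. Such a read limit can compress high levels, and whether it did so in the deposited counts was not tested. The members reached at most 1.71 counts per base (Eng).

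Here, counts were filtered (filterByExpr, 13543 genes left), TMM-scaled and tested with edgeR (v4.0.16, R v4.3.3) by the quasi-likelihood test, 1 mean per group over all 12 libraries, Benjamini-Hochberg adjustment over 13543 genes, with calls at an adjusted p of 0.05 or less. DESeq2 (v1.42.0) was an alternative, as were other scalings, no filter, a minimum log2 fold change of 1, a replicate block, fits on the compared groups alone and 15 fits that each left out libraries. Correlations used log2 CPM with a prior count of 2.

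The members and lists were chosen with earlier results of these data known. Named were all 10 members, from each list up to 3 genes with the smallest adjusted p among those called in ISO against vehicle, any called gene where a list had at most 5 in another comparison, the gene with the highest mean of a list, and the 5 genes nearest in pattern. Other list genes are named only for the make-up of a list. Replicates of a group differed beyond counting noise in every pair. The study states independent experiments but not that numbers mark them, so p-values measure the spread between libraries. As a pairing check, deviations of same-numbered libraries from their group means correlated at 0.298, 0.331 and 0.139 (ISO and vehicle), 0.343, 0.369 and 0.197 (Lip and vehicle) and 0.192, 0.298 and 0.232 (Lip+ISO and Lip), all above 0.1, so blocked values stand beside these results as a hint from the data.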

Additional observations from a re-analysis of the deposited data

Results flagged for a closer look

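In the edgeR fit with 1 mean per group, the adipocyte regulator Pparg was the 1 gene named that passed the interaction test. Its interaction was 0.58 on the log2 scale (edgeR adjusted p = 0.0274). Pparg stood at 0.55 in Lip+ISO against ISO (edgeR adjusted p = 0.00138) and -0.46 in ISO against vehicle (edgeR adjusted p = 0.00165). With the replicate block Pparg passed as well (0.58, edgeR adjusted p = 0.00622). Also called with the block were Car4 (0.64), Bmpr2 (0.50), Rgcc (-0.78), Bmp6 (-1.01), Col1a1 (-1.09) and Col3a1 (-0.89), with edgeR adjusted p from 0.000593 to 0.0366. No endothelial member passed this test. Their standard errors ran from 0.51 (Flt1) to 0.91 (Vwf), against 0.12 for Pparg. Kdr, at -0.69 ± 0.63, had a larger estimate in size than Pparg, so the members are not shown to lack such a difference.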

How the results depend on the processing

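The number of members called higher in ISO than in vehicle was 1 in the edgeR fit and also 1 with DESeq2, with DESeq2 size factors, without the filter and at a log2 fold change of at least 1. It was 0 with library totals alone, 6 in a fit on these 2 groups alone (14.1% of all genes tested there), and 9 with the replicate block (18.8%), with the block on these groups alone (21.4%) and with the block without Lip replicate 3 (17.9%; the last 2 chosen after seeing the data). Leaving out libraries moved it between 0 and 4, with 6.48% to 13.2% of all genes called. For Lip against vehicle, the block on these groups alone called 3 members lower (2.09% of all genes), and all other settings called 0. For Lip+ISO against ISO, same-numbered libraries did not all deviate together (correlations of 0.102, 0.311 and 0.0373, replicate 3 lying closer to another number at 0.0536), so the block stands here only: it called 8 members lower, where 10.8% of all tested genes were, as did the block on these groups alone (5.74%) and the block without Lip replicate 3 (10.2%), against 0 without it, and 8 of 10 were lower in 3 of 3 same-numbered pairs, as were 25.5% of all tested genes. For Lip+ISO against Lip, the count of members called higher was 6 with the block (15.5% of all genes), 5 with the block on these groups alone (12.9%), 2 with the block without Lip replicate 3 (12.1%) and 1 with DESeq2 (13.6%), and leaving out libraries moved it between 0 and 4 (6.87% to 11.1%). The interaction called 0 members in every setting, the block included. The ratio of the highest to the lowest level per kb was 121 with the span of the transcript, and the median correlation between members was 0.367 with replicate means removed (replicate block). The cause of these changes was not tested. No called value changed direction. Vwf, at 12 to 216 counts per library, was the member most limited by depth.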

Other observations

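Mural cell genes, the pericyte and smooth muscle partners of endothelial cells, were called in part. Kcnj8, a potassium channel gene of pericytes, rose with ISO by 1.71 ± 0.28 on the log2 scale (edgeR adjusted p = 0.000734), Pdgfrb, the platelet-derived growth factor receptor of mural cells, by 0.88 ± 0.22 (edgeR adjusted p = 0.0103) and Abcc9 by 0.96 ± 0.25 (edgeR adjusted p = 0.0133), while Acta2, the smooth muscle actin gene and the most abundant of the list at 122 CPM, had a log2 fold change of -0.63 ± 0.28 (edgeR adjusted p = 0.118). Among the fibroblast genes, Col1a1 rose by 0.96 ± 0.18 (edgeR adjusted p = 0.00185), Col3a1 by 0.87 ± 0.18 (edgeR adjusted p = 0.00417) and Pdgfra by 0.93 ± 0.23 (edgeR adjusted p = 0.0109), and these 3 fell in Lip+ISO against ISO by 0.73, 0.84 and 1.03 on the log2 scale (edgeR adjusted p = 0.0237, 0.0131 and 0.0152). Among the macrophage genes, Cd14 rose most clearly with ISO, by 2.41 ± 0.22 (edgeR adjusted p = 8.27e-06), followed by Cd68 at 1.13 ± 0.23 (edgeR adjusted p = 0.00297) and Lyz2 at 1.07 ± 0.22 (edgeR adjusted p = 0.00367).

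Not every endothelial gene moved with the members. Clec14a, a surface lectin, had a log2 fold change of 0.04 ± 0.38 with ISO (edgeR adjusted p = 0.947) and the transcription factor gene Sox7 one of -0.53 ± 0.28 (edgeR adjusted p = 0.183), the only value below 0 among the 24 further endothelial genes; both were picked after their values were seen. Of 3 tested platelet genes 0 passed with ISO, with 0 of 3 under an adjusted p of 0.05 with the block, and Itga2b was higher in Lip+ISO than in Lip by 1.27 ± 0.44 (edgeR adjusted p = 0.0481). The 1 tested lymphocyte gene, Cd3e, averaged 0.244 CPM and did not pass, and neither did the 1 tested erythrocyte gene, Alas2.

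Around the receptors, the response of Lip+ISO cultures differed from gene to gene. Against Lip, the VEGF gene Vegfa rose by 0.74 ± 0.17 and the ephrin gene Efnb2 by 0.88 ± 0.18 on the log2 scale, while Nrp2, a VEGF coreceptor, fell by 0.61 (edgeR adjusted p = 0.00557, 0.00294 and 0.00415). Among the partners of Eng, the BMP receptor gene Bmpr2 rose by 0.48 ± 0.10, and Smad6, Id3 and Tgfbr2 fell by 1.70, 0.53 and 0.28 (edgeR adjusted p = 0.00335, 1.19e-06, 0.00888 and 0.0364). Among the catenin genes, Ctnna1 rose by 0.52 ± 0.10 and Jup fell by 0.74 (edgeR adjusted p = 0.00193 and 0.00311), and among the capillary-associated genes Car4 rose by 0.37 ± 0.13 and Rgcc fell by 0.67 (edgeR adjusted p = 0.0479 and 0.0220). Against ISO, Bmpr2 rose by 0.50 ± 0.10, Id1 by 0.53 ± 0.12 and Id2 by 0.92 ± 0.17, Smad6 fell by 0.68, and Ctnnd1 rose by 0.35 ± 0.09 (edgeR adjusted p = 0.00871, 0.0171, 0.00488, 0.00643 and 0.0255).

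Among genes of other cell types, the macrophage genes Cd14, Csf1r and Itgam were higher in Lip+ISO than in Lip by 1.61 ± 0.22, 0.87 ± 0.29 and 0.83 ± 0.22 on the log2 scale, and the mural genes Kcnj8 and Abcc9 by 1.89 ± 0.29 and 0.75 ± 0.25, while Acta2 fell by 1.31 (edgeR adjusted p between 0.000116 and 0.0428). The mesothelial transcription factor gene Wt1 rose in this comparison by 1.49 ± 0.30 and in ISO against vehicle by 1.47 ± 0.31 (edgeR adjusted p = 0.00257 and 0.00374). Lep, the leptin gene, fell by 1.67 and 1.84 in the same comparisons (edgeR adjusted p = 0.000240 and 0.000192), and Lipe, which encodes hormone-sensitive lipase, fell by 0.44 against Lip and by 0.65 against ISO (edgeR adjusted p = 0.0416 and 0.0165). The epithelial gene Cdh1 was lower by 4.75 on the log2 scale in Lip+ISO than in Lip (edgeR adjusted p = 0.0384), where its level in Lip was 6.42 ± 10.7 CPM (SD, n = 3), an SD above the mean, and Lip replicate 3 was the library that stood apart in its epithelial genes.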
